A study of Homo sapiens with 10 samples.

Results

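The mitosis, kinetochore and spindle genes are 42 genes whose products build the mitotic spindle, attach chromosomes to it, time their separation and divide the cell. Members were found as the probe sets annotated to exactly 1 gene, that gene being on the list, which gave 79 of the 54675 probe sets of the array. Of the 42 genes, 21 had several probe sets and 21 had 1. All 42 were measured and tested, each by its probe set with the highest mean intensity over the 10 arrays.

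During mitosis the kinetochore, a protein assembly on centromeric chromatin, binds the plus ends of spindle microtubules, and the spindle checkpoint holds back anaphase until every chromosome is attached. Cyclin-dependent and Aurora kinases drive entry into mitosis, kinesin motors shape the spindle, and the anaphase-promoting complex ends mitosis by marking cyclins and securin for destruction. Transcripts of most of these genes accumulate in late cell cycle phases, so their levels in a culture are widely read as a measure of proliferation.

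Total RNA was hybridised to 10 arrays of the Affymetrix HG-U133 Plus 2.0 type. The cells were RWPE-1, a non-tumorigenic immortalised line of human prostate epithelium. All cells had been infected with MSCV retroviruses, were selected as stable clones and carried the biotin ligase BirA. The groups were cells carrying BirA and ERG (3 arrays, replicates A to C), cells carrying BirA and ETV1 (4 arrays, replicates A to D) and control cells carrying BirA alone (3 arrays, replicates A to C). ERG and ETV1 are ETS transcription factors that gene fusions activate in prostate cancer, and the comparisons ask which transcripts differ when each is overexpressed. The retroviral promoter drives the factors at levels set by the vector, and the labels do not say how many clones a group holds or whether the replicates are separate clones. The series' design text names 3 biological replicates, while the labels list 4 ETV1 arrays and do not say what sets replicate D apart. The p-values therefore measure the spread between these arrays, which may be technical, and the number of arrays limits their precision.

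The 3 arrays labelled ERG differed from the rest in overall signal, with a median intensity of 48.5 to 52.6, against 70.9 to 75.5 on the ETV1 and 71.4 to 73.4 on the control arrays. The 3 prime over 5 prime signal ratio of ACTB, which rises as RNA degrades or labelling shortens, was 2.75 to 3.07 on the ERG-labelled, 1.24 to 1.30 on the ETV1 and 1.35 to 1.40 on the control arrays. The same ratio of GAPDH was 0.946 to 1.04 on the ERG-labelled, 0.994 to 1.05 on the ETV1 and 0.893 to 0.931 on the control arrays. The cre hybridisation control read 29407 to 32316 on the ERG-labelled, 15715 to 17419 on the ETV1 and 14926 to 15840 on the control arrays. Ribosomal 18S signal at the 5 prime end was 834 to 1102.5 on the ERG-labelled and 79.4 to 159 on the control arrays. On the ETV1 arrays this signal was 276 to 874, overlapping the ERG-labelled range. Spearman correlations over all probe sets were 0.766 to 0.811 between ERG-labelled and control arrays. The ETV1 probe set 217053_x_at read 1320 ± 355 on the ETV1 arrays (SD, n = 4) and 88.1 ± 29.0 on the control arrays (SD, n = 3). Means on the ETV1 and control arrays were 947 and 133 for 206501_x_at and 817 and 111 for 217061_s_at. They were closer for 221910_at, 90.5 and 80.3, and for 221911_at, 46.7 and 39.0. Each of these ETV1 probe sets averaged lower on the ERG-labelled than on the control arrays, 217053_x_at at 14.9 ± 5.59 (SD, n = 3). For ERG itself the probe set 211626_x_at read 36.5 ± 12.3 on the ERG-labelled and 9.04 ± 3.23 on the control arrays, while 222079_at read 9.43 ± 1.57 on the ERG-labelled and 186 ± 4.61 on the control arrays (SD, n = 3 each). On the same arrays 213541_s_at read 33.5 ± 7.35 and 25.5 ± 12.5, and 241926_s_at 26.4 ± 7.76 and 17.2 ± 3.52. Each of these ERG probe sets averaged below 48.5, the lowest median of an ERG-labelled array, on the ERG-labelled arrays. The ERG label was thus not settled by ERG's own probe sets, and every direction given for these arrays is a direction of the arrays labelled ERG. Of 10 markers of basal prostate epithelium 8 were measured, KRT5 and KRT14 among them, and these 8 lay above the array's median in all 3 groups. The summed intensity of luminal markers was 574 to 685 on the ERG-labelled, 1328 to 1502 on the ETV1 and 1386 to 1687 on the control arrays. Of 6 tested luminal markers 4 were lower on the ERG-labelled than on the control arrays, and STEAP2 and SLC45A3 were higher. The sums of the fibroblast, endothelial, leukocyte and neuroendocrine lists were also lowest on the ERG-labelled arrays, but single markers went the other way, the fibroblast marker FAP averaging 35.2 on the ERG-labelled, 8.88 on the ETV1 and 15.1 on the control arrays. The sum of 9 general epithelial markers, EPCAM and KRT7 among them, was 34604 to 35930 on the ERG-labelled, 16204 to 20608 on the ETV1 and 19046 to 25047 on the control arrays. Of these 9 markers 6 were higher on the ERG-labelled than on the control arrays, and CLDN4 was lower. The part of these differences in the results was not tested.

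On the ERG-labelled arrays 40 of the 42 genes were higher than on the control arrays, led by the outer kinetochore genes NUF2, 3.32 on the log2 scale, and NDC80, 2.95. The mitotic kinase PLK1 was lower (-1.17) and the passenger complex gene CDCA8 did not pass (0.10). In ETV1 cells the 42 genes split: 14 were lower than in control cells, among them CENPM, SPC25, KIF11, MKI67 and MAD2L1, 1 was higher (NDC80, 0.54), and 27 did not pass. The remaining kinetochore, checkpoint and cyclin B genes of the ETV1 arrays lay within 0.27 of the control level on the log2 scale, in either direction. More dividing cells and more of these transcripts per cell cannot be told apart on such arrays.

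These calls come from limma on log2(intensity + 16), where 16 is a constant that damps the noise of dim probe sets, with Benjamini-Hochberg adjustment over 14069 tested genes and a threshold of 0.05. In the comparison of ERG-labelled with control arrays, 48% of all tested genes were higher and 32.3% lower, against 40 and 1 of the 42. The median log2 fold change was 1.82 over the 42 genes and 0.30 over all tested genes. Over all genes the calls split differently when each array was centred on its median, with 60.7% higher and 24.9% lower and a median of 0.71, while after quantile normalization the median was 0.06. The median of the 42 genes exceeded that of all genes by 1.52 as deposited and by 1.33 after quantile normalization. Median centring moves every gene of an array by the same amount, so it cannot change this difference. After quantile normalization 39 of the 42 were higher, against 39.9% of all genes, and TPX2 was the gene that no longer passed, with 0.06 (adjusted p = 0.75).

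In the comparison of ETV1 with control arrays 9.32% of all tested genes were higher and 15.9% lower, against 1 and 14 of the 42. The median log2 fold change was -0.25 over the 42 genes and -0.06 over all tested genes. Without control replicate C the median of the 42 was -0.39, and without control replicate A it was -0.16. The share of members called higher was thus below that of all genes, and the share called lower above it. Between ERG-labelled and ETV1 arrays 40 of the 42 were higher and PLK1 was lower on the ERG-labelled arrays, where 50.7% of all tested genes were higher and 33.4% lower. This comparison and the one with control share the ERG-labelled arrays, so the 2 counts are not independent of each other.

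Of the 42 genes, 40 had all 3 ERG-labelled arrays above all control arrays, a pattern that 47.2% of all tested genes showed. PLK1 alone had all 3 below, as had 31.6% of all tested genes, and in CDCA8 the groups overlapped. On all 4 ETV1 arrays 15 of the 42 lay below every control array, against 20.8% of all tested genes, and NDC80 alone lay above, against 13.2%. The plot of the members by array shows these patterns together.

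**Figure D1:**
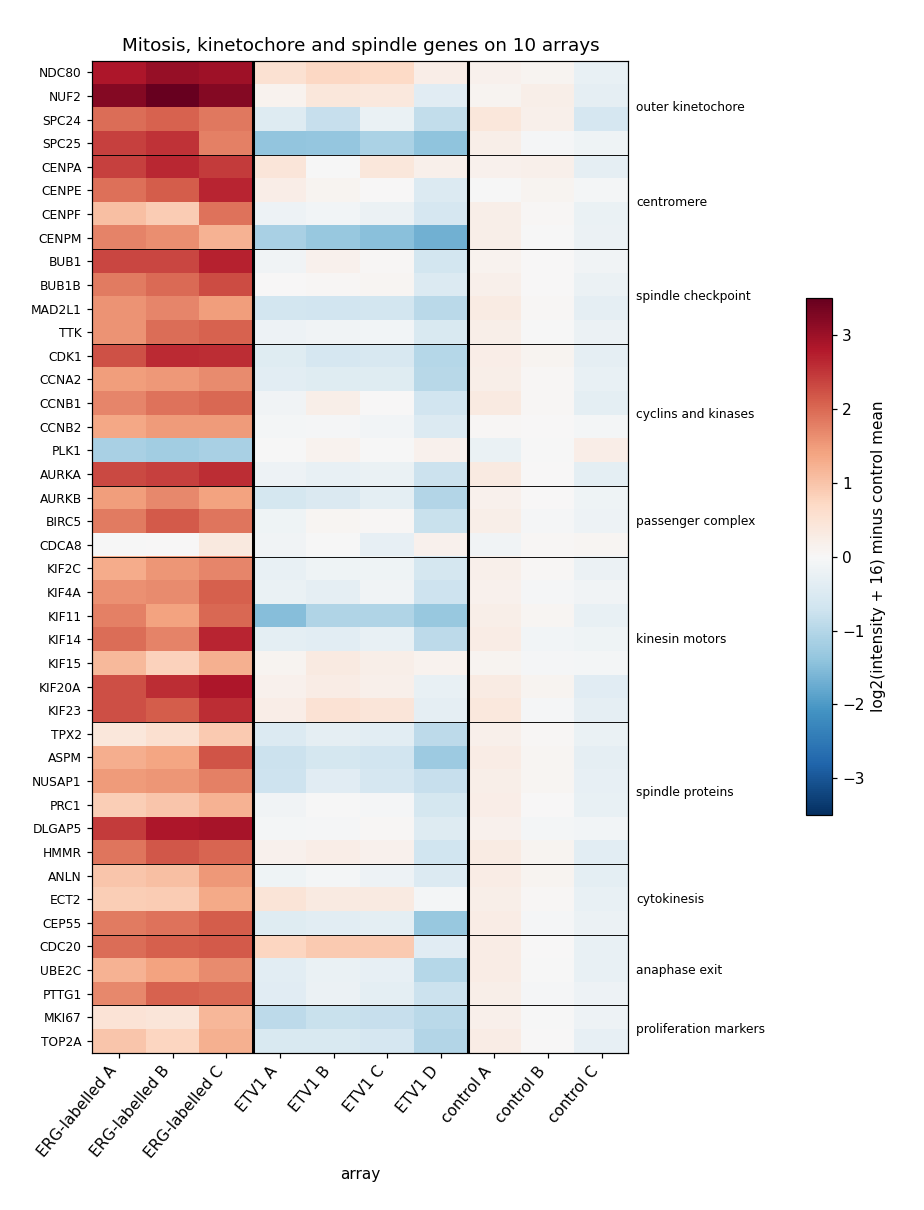
Each row is 1 of the 42 genes and each column 1 array, with the ERG-labelled arrays left, the ETV1 arrays in the middle and the control arrays right. Colour gives log2(intensity + 16) minus the gene's mean over the 3 control arrays (red higher, blue lower). The ERG-labelled columns are red except for PLK1 and CDCA8, and in most genes ETV1 replicate D is bluer than the other ETV1 arrays.

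**Figure D2:**
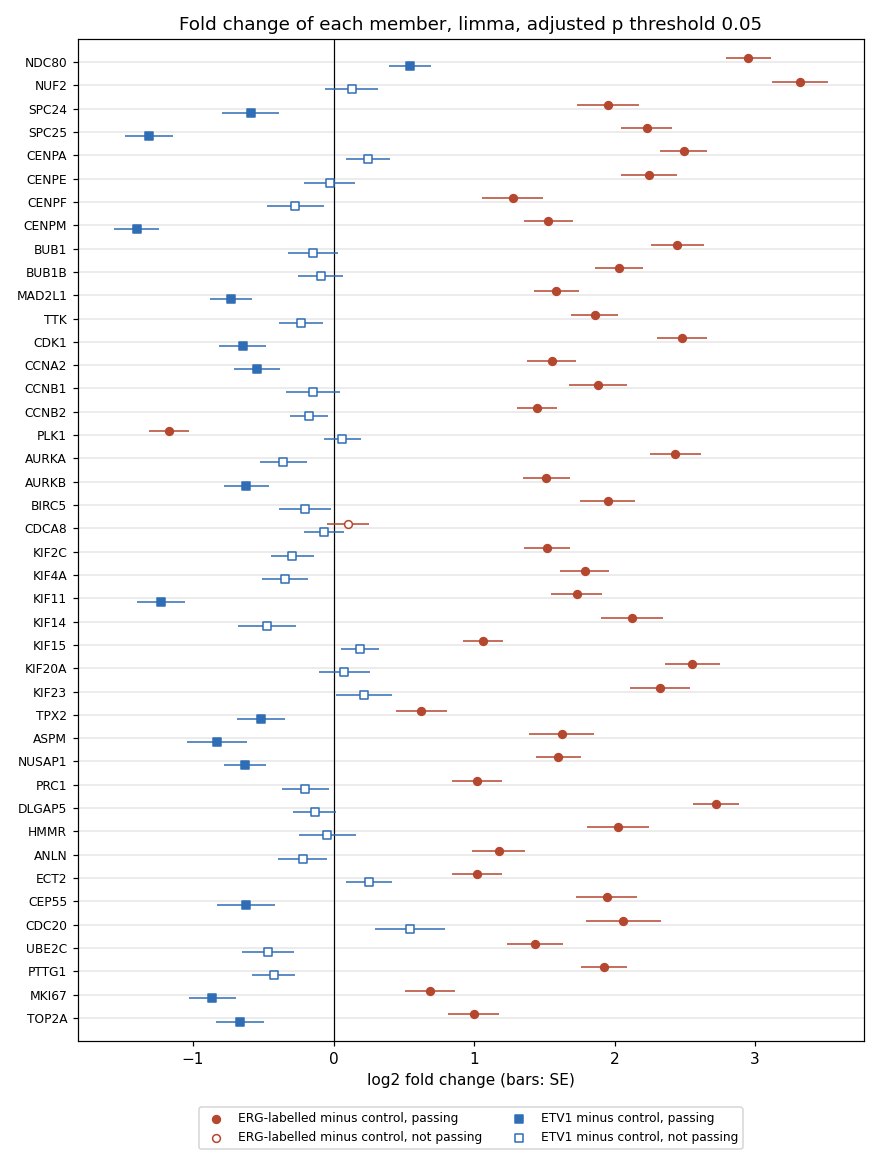
Log2 fold change of each member with its standard error, for ERG-labelled minus control (circles) and ETV1 minus control (squares). Filled symbols passed the adjusted p threshold of 0.05. The circles lie right of 0 except PLK1 (-1.17), and the filled squares lie between -1.40 (CENPM) and 0.54 (NDC80).

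Promoter sequence was not used to choose the members. Late cell cycle promoters are known for a cell cycle genes homology region (CHR), which MuvB complexes bind, and for CCAAT boxes, which the factor NF-Y binds. RefSeq promoters of GRCh38, running from 250 bases before to 50 after the first start listed for a gene, were matched for 36 of the 42 members, and not for AURKA, TTK, CENPM, TPX2, UBE2C and BIRC5. A CHR, searched as TTTGAA or TTCGAA on both strands, was in 28 of 36 (77.8%), against 16.6% of the 27305 promoters of all genes and 11.9% of those of tested genes. A CCAAT box, searched as CCAAT on both strands, was in 29 of 36 (80.6%), against 35.7% of all promoters. Both motifs were in 23 of 36 (63.9%), against 6.58% of all promoters. In the window from 60 bases before to 50 after the start, chosen after the positions were seen, 24 of 36 members (66.7%) held a CHR, against 5.46% of all promoters. An ETS site, searched as CCGGAAGT on both strands, was in 3 of 36 (8.33%), against 4.44% of all promoters and 7.96% of those of tested genes. A match is a run of letters and not a measured binding site.

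A promoter each of MKI67, TOP2A, SPC25 and NUF2 is shown because it holds a CHR in genes whose arrays are described next. MKI67 lies at chr10:128126374-128126673 on the minus strand, TOP2A at chr17:40417847-40418146 on the minus strand, SPC25 at chr2:168890381-168890680 on the minus strand and NUF2 at chr1:163321704-163322003 on the plus strand of GRCh38. Each is printed 5′ to 3′ on the strand of the gene, with every CHR and CCAAT match of either strand in capitals.
MKI67 promoter: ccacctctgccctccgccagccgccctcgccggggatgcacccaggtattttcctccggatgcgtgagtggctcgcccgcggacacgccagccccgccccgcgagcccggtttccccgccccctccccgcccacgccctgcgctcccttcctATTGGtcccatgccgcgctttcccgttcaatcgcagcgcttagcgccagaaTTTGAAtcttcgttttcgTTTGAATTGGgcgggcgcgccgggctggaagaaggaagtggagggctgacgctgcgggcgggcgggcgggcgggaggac
TOP2A promoter: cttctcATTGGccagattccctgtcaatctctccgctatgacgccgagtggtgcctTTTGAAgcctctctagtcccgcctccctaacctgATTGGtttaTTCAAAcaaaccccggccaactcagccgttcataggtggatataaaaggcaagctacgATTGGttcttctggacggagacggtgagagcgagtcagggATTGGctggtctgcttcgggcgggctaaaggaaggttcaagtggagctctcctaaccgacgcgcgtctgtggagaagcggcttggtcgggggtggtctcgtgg
SPC25 promoter: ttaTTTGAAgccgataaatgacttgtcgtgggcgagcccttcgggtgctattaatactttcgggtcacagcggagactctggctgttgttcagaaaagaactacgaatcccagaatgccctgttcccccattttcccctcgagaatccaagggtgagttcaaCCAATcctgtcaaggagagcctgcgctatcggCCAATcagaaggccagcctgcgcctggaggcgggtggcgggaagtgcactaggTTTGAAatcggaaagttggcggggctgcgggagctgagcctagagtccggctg
NUF2 promoter: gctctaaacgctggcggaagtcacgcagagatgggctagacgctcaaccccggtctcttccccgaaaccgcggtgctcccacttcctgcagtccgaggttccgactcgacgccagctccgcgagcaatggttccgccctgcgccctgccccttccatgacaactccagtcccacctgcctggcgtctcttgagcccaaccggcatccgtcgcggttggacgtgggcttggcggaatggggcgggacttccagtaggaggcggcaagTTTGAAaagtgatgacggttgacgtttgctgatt
In MKI67 the second CHR and the second CCAAT box share a base, so the capitals run together there. Counted from the start, the CHR of NUF2 begins at base 17, and the second CHR of SPC25 begins 3 bases upstream. NUF2 holds no CCAAT box in this window, and the other promoters shown hold 2 or 4.

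The proliferation markers are MKI67, which encodes the Ki-67 protein of dividing cells, and TOP2A, the topoisomerase that untangles sister chromatids. MKI67 read 627, 606 and 1022 on the ERG-labelled arrays, 231, 252, 251 and 224 on the ETV1 arrays, and 513, 442 and 396 on the control arrays. Its ETV1 arrays all lay below the control arrays, and its ERG-labelled arrays all lay above them, with replicate C apart from A and B. The log2 fold change was 0.69 (SE 0.18, adjusted p = 0.0021) for ERG-labelled and -0.86 (SE 0.17, adjusted p = 0.0012) for ETV1 minus control. With the mean of its probe sets the ERG-labelled value of MKI67 was 0.22 (adjusted p = 0.25). TOP2A read 2923, 2502 and 3531 on the ERG-labelled arrays, 1009, 1023, 976 and 721 on the ETV1 arrays, and 1776, 1499.7 and 1202 on the control arrays. The 3 groups did not overlap, and replicate D was the lowest ETV1 array. TOP2A changed by 0.996 (SE 0.18, adjusted p = 8.1e-05) on the ERG-labelled arrays and by -0.67 (SE 0.17, adjusted p = 0.0083) on the ETV1 arrays, and the ETV1 call was lost without control replicate A (-0.53, adjusted p = 0.06) and with the mean of its probe sets (-0.33, adjusted p = 0.092).

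NDC80, NUF2, SPC24 and SPC25 encode the Ndc80 complex, the rod that couples kinetochores to microtubules. All 4 rose on the ERG-labelled arrays. In ETV1 cells SPC24 and SPC25 fell and NDC80 rose. NUF2 read 863, 1061 and 866 on the ERG-labelled arrays, 86.7, 109, 107 and 55.8 on the ETV1 arrays, and 85.6, 92.7 and 60.2 on the control arrays. Every ERG-labelled array lay far above all ETV1 and control arrays, and the ETV1 and control arrays overlapped. Its log2 fold change was 3.32 (SE 0.20, adjusted p = 2.4e-10) on the ERG-labelled arrays, the largest of the 42 genes, and 0.13 (SE 0.19, adjusted p = 0.67) on the ETV1 arrays. NDC80 read 1504, 1756 and 1661 on the ERG-labelled arrays, 293, 336, 331 and 233 on the ETV1 arrays, and 221, 213 and 163 on the control arrays. The ETV1 arrays lay above the control arrays and below the ERG-labelled ones, without overlap. NDC80 rose by 2.95 (SE 0.16, adjusted p = 8.1e-11) on the ERG-labelled and by 0.54 (SE 0.15, adjusted p = 0.014) on the ETV1 arrays, the ETV1 call being lost without control replicate C (0.42, adjusted p = 0.055) or without ETV1 replicate C (0.49, adjusted p = 0.051).

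The 2 globular partners of the complex went lower in ETV1 cells. SPC25 read 1153, 1288 and 743 on the ERG-labelled arrays, 70.4, 71.2, 87.5 and 68.8 on the ETV1 arrays, and 241, 201 and 186 on the control arrays. The 3 groups did not overlap, and the ETV1 arrays lay far below the control arrays. SPC25 fell by 1.31 on the ETV1 arrays (SE 0.17, adjusted p = 3.2e-05) and rose by 2.23 (SE 0.18, adjusted p = 9.2e-09) on the ERG-labelled arrays. SPC24 read 347, 379.6 and 325 on the ERG-labelled arrays, 53, 37.6, 64.4 and 36.2 on the ETV1 arrays, and 108, 91.9 and 47.1 on the control arrays. Its ETV1 and control arrays overlapped, control replicate C lying inside the ETV1 range, and of the 14 ETV1 calls its own was kept in the fewest alternatives, 11 of 24. It was lost without control replicates A (-0.40, adjusted p = 0.24) or B, without ETV1 replicates A, B or D and without ERG-labelled replicate A, which enters through the shared spread. The ETV1 log2 fold change of SPC24 was -0.59 (SE 0.20, adjusted p = 0.043), and the ERG-labelled one 1.95 (SE 0.22, adjusted p = 3.8e-07). Genes were tested if above the array's median on at least 3 arrays. Outside the ERG-labelled arrays SPC24 was above it on control replicates A and B alone. It thus entered the tests only through the arrays where it was high. The ERG-labelled call was kept in all 24 alternatives that keep the threshold, the one with no filter among them.

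Among the centromere genes are CENPA, the histone H3 variant that marks centromeres, CENPM, a subunit of the inner kinetochore network, CENPE, a kinesin that carries chromosomes to the spindle equator, and CENPF, a protein of the outer kinetochore. All 4 rose on the ERG-labelled arrays, and CENPM fell on the ETV1 arrays. CENPM read 596, 553 and 412 on the ERG-labelled arrays, 67, 57.3, 51.1 and 41.3 on the ETV1 arrays, and 197, 165 and 145 on the control arrays. The ETV1 arrays lay far below the lowest control array, and the ERG-labelled arrays above the highest. CENPM fell by 1.40 on the ETV1 arrays (SE 0.16, adjusted p = 1e-05), the largest fall of the 42 genes in that comparison, and rose by 1.53 (SE 0.17, adjusted p = 4.6e-07) on the ERG-labelled arrays. CENPA read 804, 969 and 845 on the ERG-labelled arrays, 197, 139, 189.9 and 164 on the ETV1 arrays, and 158, 163 and 109.9 on the control arrays. Its ERG-labelled arrays stood apart, and ETV1 and control arrays overlapped, with log2 fold changes of 2.49 (SE 0.17, adjusted p = 9.1e-10) and 0.25 (adjusted p = 0.28). CENPE read 504, 577 and 852 on the ERG-labelled arrays, 145, 129, 122 and 82.4 on the ETV1 arrays, and 118, 130.0 and 113 on the control arrays. The ERG-labelled log2 fold change of CENPE was 2.24 (SE 0.20, adjusted p = 2.1e-08), and on the ETV1 arrays, which overlapped with control, it was -0.03 (adjusted p = 0.93). CENPF changed by 1.28 on the ERG-labelled and -0.27 on the ETV1 arrays, where it did not pass.

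The checkpoint genes encode the kinases BUB1 and TTK, the BUBR1 protein (BUB1B), and MAD2 (MAD2L1), which holds the anaphase activator CDC20 in check. All 4 rose on the ERG-labelled arrays and MAD2L1 fell on the ETV1 arrays. MAD2L1 read 4460.4, 4958 and 4166 on the ERG-labelled arrays, 953, 929, 946 and 764 on the ETV1 arrays, and 1816, 1524 and 1205 on the control arrays. The 3 groups did not overlap. MAD2L1 fell by 0.73 on the ETV1 arrays (SE 0.15, adjusted p = 0.002) and rose by 1.59 (SE 0.16, adjusted p = 1.1e-07) on the ERG-labelled arrays. BUB1B read 1557, 1749 and 2125 on the ERG-labelled arrays, 428, 443, 448 and 301 on the ETV1 arrays, and 482, 435 and 372 on the control arrays. Apart from replicate D the ETV1 arrays lay inside the control range, and the ERG-labelled arrays were all far above it. BUB1B rose by 2.03 (SE 0.17, adjusted p = 1.5e-08) on the ERG-labelled arrays, and its ETV1 value was -0.09 (adjusted p = 0.74). BUB1 read 824, 827 and 1059 on the ERG-labelled arrays, 137, 171, 156 and 90.4 on the ETV1 arrays, and 166, 153 and 137 on the control arrays on its brightest probe set. That probe set rose by 2.45 (SE 0.19, adjusted p = 4.1e-09) on the ERG-labelled arrays, and its ETV1 value was -0.15 (adjusted p = 0.59). A second BUB1 probe set went the other way, as given with the probe sets. TTK changed by 1.86 and -0.23, the ETV1 value not passing.

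CDK1, the kinase that drives mitosis, and its partner cyclin A2 (CCNA2) fell in ETV1 cells, while the cyclin B genes CCNB1 and CCNB2 and the kinases AURKA and PLK1 did not pass there. CDK1 read 3526, 4589 and 4534 on the ERG-labelled arrays, 545, 481, 494 and 362 on the ETV1 arrays, and 863, 786 and 589 on the control arrays. The ETV1 arrays lay below the control arrays, and the ERG-labelled arrays several times above them. CDK1 fell by 0.65 on the ETV1 arrays (SE 0.17, adjusted p = 0.0093), a call lost without control replicate A (-0.53, adjusted p = 0.062), and rose by 2.48 (SE 0.18, adjusted p = 2.1e-09) on the ERG-labelled arrays. CCNA2 read 1992, 2079 and 2299 on the ERG-labelled arrays, 545, 528, 528 and 359 on the ETV1 arrays, and 832, 741 and 587 on the control arrays. Replicate D was far below the other ETV1 arrays, which lay close together. CCNA2 fell by 0.54 on the ETV1 arrays (SE 0.16, adjusted p = 0.02), a call lost without ETV1 replicate D (-0.41, adjusted p = 0.058) and without control replicates B (-0.52, adjusted p = 0.079) or A (-0.44, adjusted p = 0.11), and rose by 1.55 (SE 0.17, adjusted p = 3.6e-07) on the ERG-labelled arrays.

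AURKA, the centrosomal Aurora kinase, read 3867, 4135 and 4729 on the ERG-labelled arrays, 673, 645, 649 and 452 on the ETV1 arrays, and 953, 785 and 610.2 on the control arrays. Its ETV1 and control arrays overlapped, and its ERG-labelled arrays were far above both. AURKA rose by 2.43 (SE 0.18, adjusted p = 3.1e-09) on the ERG-labelled arrays, a call lost without _s or _x probe sets (0.28, adjusted p = 0.32), and its ETV1 value was -0.36 (adjusted p = 0.14). CCNB1 and CCNB2 rose by 1.88 and 1.45 on the ERG-labelled arrays, and their ETV1 values were -0.15 and -0.17, neither passing. PLK1, the Polo kinase of mitotic entry and cytokinesis, was the exception, and its values are given for that reason. PLK1 read 192, 181 and 193 on the ERG-labelled arrays, 441, 484, 443 and 490.5 on the ETV1 arrays, and 377, 444 and 523 on the control arrays. The ERG-labelled arrays lay closely together, below every other array, while the ETV1 and control arrays overlapped. PLK1 fell by 1.17 on the ERG-labelled arrays (SE 0.14, adjusted p = 9.1e-07), a call kept in each of the 24 alternatives that keep the threshold, and its ETV1 value was 0.06 (adjusted p = 0.79). PLK1 is measured by 1 probe set, so no second one could be set against it.

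AURKB, the kinase of the chromosomal passenger complex, and BIRC5, which encodes its survivin subunit, rose on the ERG-labelled arrays, and the borealin gene CDCA8 did not pass. AURKB read 929, 1081 and 898 on the ERG-labelled arrays, 211, 224, 256 and 152 on the ETV1 arrays, and 368, 328 and 291 on the control arrays. The 3 groups did not overlap. AURKB fell by 0.62 on the ETV1 arrays (SE 0.16, adjusted p = 0.0086), a call lost without control replicate A (-0.54, adjusted p = 0.051), and rose by 1.51 (SE 0.17, adjusted p = 3.9e-07) on the ERG-labelled arrays. Its second, dimmer probe set passed in neither comparison. BIRC5 read 1429, 1799 and 1482 on the ERG-labelled arrays, 353, 411, 403 and 222 on the ETV1 arrays, and 454, 384 and 347 on the control arrays. The ERG-labelled arrays lay above the others, and ETV1 and control arrays overlapped. It rose by 1.95 (SE 0.20, adjusted p = 1.1e-07) on the ERG-labelled arrays, and its ETV1 value was -0.21 (adjusted p = 0.46). CDCA8 read 362, 371 and 468 on the ERG-labelled arrays, 336, 366, 302 and 411 on the ETV1 arrays, and 341, 383 and 385 on the control arrays. All 3 groups overlapped, with log2 fold changes of 0.10 (SE 0.15, adjusted p = 0.54) and -0.07 (adjusted p = 0.78), and CDCA8 passed on the ERG-labelled arrays when arrays were centred on their medians (0.51, adjusted p = 0.0036).

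All 7 kinesin genes rose on the ERG-labelled arrays, by 1.06 (KIF15) to 2.55 (KIF20A), and 1 of the 7, KIF11, fell on the ETV1 arrays. KIF11, also called Eg5, pushes spindle poles apart. KIF11 read 1159, 903 and 1389 on the ERG-labelled arrays, 108, 152, 151 and 122 on the ETV1 arrays, and 384, 346 and 271 on the control arrays. The ETV1 arrays all lay far below the control arrays, and the ERG-labelled arrays far above. KIF11 fell by 1.23 on the ETV1 arrays (SE 0.17, adjusted p = 6.3e-05) and rose by 1.73 (SE 0.18, adjusted p = 1.7e-07) on the ERG-labelled arrays. KIF15, a motor that can take over the role of KIF11, changed by 0.19 (adjusted p = 0.35) on the ETV1 arrays and did not pass.

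KIF20A and KIF23 work at the central spindle, where the cell divides. KIF20A read 1944, 2411 and 2883 on the ERG-labelled arrays, 435, 472, 442 and 325 on the ETV1 arrays, and 486, 422 and 294 on the control arrays. Its ETV1 and control arrays overlapped. KIF20A rose by 2.55 (SE 0.19, adjusted p = 4e-09) on the ERG-labelled arrays, and its ETV1 value was 0.08 (adjusted p = 0.81). KIF23 read 644, 585 and 813 on the ERG-labelled arrays, 147, 181, 167 and 94.9 on the ETV1 arrays, and 161, 117 and 94.5 on the control arrays. It rose by 2.32 (SE 0.21, adjusted p = 3.4e-08) on the ERG-labelled arrays, and on the ETV1 arrays, which overlapped with control, its value was 0.21 (adjusted p = 0.48). The microtubule depolymerase KIF2C, the chromokinesin KIF4A and the cytokinesis motor KIF14 changed by 1.52, 1.79 and 2.12 on the ERG-labelled arrays. On the ETV1 arrays their values were -0.29, -0.35 and -0.47, none passing. A second KIF2C probe set did not pass on the ERG-labelled arrays, as given with the probe sets.

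The spindle proteins that are no motors all rose on the ERG-labelled arrays, and TPX2, ASPM and NUSAP1 fell on the ETV1 arrays. DLGAP5, which stabilises kinetochore fibres, read 936, 1232 and 1289 on the ERG-labelled arrays, 150.5, 154, 165 and 112 on the ETV1 arrays, and 179, 153 and 149 on the control arrays. It rose by 2.72 (SE 0.16, adjusted p = 2.5e-10) on the ERG-labelled arrays, and its ETV1 value was -0.14 (adjusted p = 0.57), with the ETV1 and control arrays overlapping. HMMR, a spindle assembly factor, read 2361, 2891 and 2649 on the ERG-labelled arrays, 698, 746, 702 and 386 on the ETV1 arrays, and 774, 675 and 485 on the control arrays. Replicate D was at 54% of the mean of the other ETV1 arrays, which lay inside the control range. HMMR rose by 2.02 (SE 0.22, adjusted p = 2.6e-07) on the ERG-labelled arrays, and its ETV1 value was -0.04 (adjusted p = 0.91).

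ASPM, a protein of the spindle poles, read 1789.5, 1943 and 3428 on the ERG-labelled arrays, 430.0, 469, 453 and 290.3 on the ETV1 arrays, and 874, 762 and 584 on the control arrays. Its ETV1 arrays lay below all control arrays. ASPM fell by 0.83 on the ETV1 arrays (SE 0.22, adjusted p = 0.0096), a call lost without control replicate A (-0.70, adjusted p = 0.066) and without _s or _x probe sets, those that may match several transcripts (-0.35, adjusted p = 0.072), and rose by 1.62 (SE 0.23, adjusted p = 6e-06) on the ERG-labelled arrays. NUSAP1, which bundles spindle microtubules, read 4172, 4359.9 and 5040.1 on the ERG-labelled arrays, 889, 1111, 982 and 842 on the ETV1 arrays, and 1720.2, 1565 and 1200.3 on the control arrays. The 3 groups did not overlap. On this brightest probe set NUSAP1 fell by 0.63 on the ETV1 arrays (SE 0.15, adjusted p = 0.0056) and rose by 1.60 (SE 0.16, adjusted p = 1e-07) on the ERG-labelled arrays. A second NUSAP1 probe set was lower on the ERG-labelled arrays (-0.84, adjusted p = 0.00031), as given with the probe sets. TPX2, the activator of AURKA, changed by 0.62 (SE 0.18, adjusted p = 0.0048) on the ERG-labelled arrays and by -0.52 (SE 0.17, adjusted p = 0.034) on the ETV1 arrays, a call lost without ETV1 replicate D (-0.39, adjusted p = 0.094), without ETV1 replicate A and without control replicates A or B (-0.43, adjusted p = 0.15 without control A). PRC1, which cross-links antiparallel microtubules, changed by 1.02 and by -0.20, the ETV1 value not passing.

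Of the cytokinesis genes, the ring scaffold ANLN, the division regulator ECT2 and the abscission factor CEP55 rose on the ERG-labelled arrays, and CEP55 fell on the ETV1 arrays. CEP55 read 2348, 2515 and 2902 on the ERG-labelled arrays, 483, 503, 514 and 253 on the ETV1 arrays, and 785, 635 and 573 on the control arrays. Replicate D was at 50.6% of the mean of the other ETV1 arrays, and all ETV1 arrays lay below the control arrays. CEP55 fell by 0.62 on the ETV1 arrays (SE 0.20, adjusted p = 0.033), a call lost without ETV1 replicate D (-0.39, adjusted p = 0.072) and without control replicates A (-0.50, adjusted p = 0.16) or B (-0.65, adjusted p = 0.074), and rose by 1.94 (SE 0.22, adjusted p = 3.9e-07) on the ERG-labelled arrays. ANLN read 1823, 1935 and 2682 on the ERG-labelled arrays, 835, 891, 816 and 656 on the ETV1 arrays, and 1122, 986 and 723 on the control arrays. It rose by 1.17 (SE 0.19, adjusted p = 1.9e-05) on the ERG-labelled arrays, against 0.24 (adjusted p = 0.33) without _s or _x probe sets, and its ETV1 value was -0.22 (adjusted p = 0.39), with ETV1 and control arrays overlapping. ECT2 read 1437, 1474 and 1995 on the ERG-labelled arrays, 1083, 980.1, 980.3 and 756 on the ETV1 arrays, and 919, 819.6 and 652 on the control arrays. The ERG-labelled arrays lay above the others, which overlapped. On this brightest probe set ECT2 rose by 1.02 (SE 0.18, adjusted p = 4.8e-05) on the ERG-labelled arrays, and its ETV1 value was 0.25 (adjusted p = 0.3). With the mean of its probe sets ECT2 was lower on the ERG-labelled than on the control arrays (-0.42, adjusted p = 0.026). Another ECT2 probe set went the other way, as given with the probe sets.

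CDC20, which activates the anaphase-promoting complex, its ubiquitin-conjugating enzyme UBE2C and securin (PTTG1), which guards sister chromatids, all rose on the ERG-labelled arrays, and none of the 3 passed on the ETV1 arrays. CDC20 read 2987, 3241 and 3382 on the ERG-labelled arrays, 1269.5, 1442, 1441 and 564 on the ETV1 arrays, and 900.1, 762 and 624 on the control arrays. ETV1 replicates A to C lay above every control array, and replicate D lay below every control array, at 40.8% of the mean of A to C. CDC20 rose by 2.06 (SE 0.26, adjusted p = 1.8e-06) on the ERG-labelled arrays, and its ETV1 value was 0.54 (SE 0.25, adjusted p = 0.12), which became 0.86 (adjusted p = 0.00053) without replicate D. PTTG1 read 8736, 11397 and 10884 on the ERG-labelled arrays, 2035, 2335, 2119 and 1587 on the ETV1 arrays, and 3102, 2642 and 2388 on the control arrays. All ETV1 arrays lay below the control arrays, with a log2 fold change of -0.43 (adjusted p = 0.054) that passed in 9 of the 23 alternatives in which it was tested. PTTG1 rose by 1.92 (SE 0.17, adjusted p = 1.8e-08) on the ERG-labelled arrays. UBE2C changed by 1.43 on the ERG-labelled and by -0.47 (adjusted p = 0.076) on the ETV1 arrays.

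ETV1 replicate D differed from replicates A to C across these genes. It was the lowest of the 4 ETV1 arrays in 37 of 42, where 37.2% of all tested genes had D lowest, the exceptions being CDCA8, CENPA, KIF11, KIF15 and PLK1. In 33 of 42 it was the lowest of all 10 arrays, against 16.6% of all tested genes. Relative to the mean of A to C, replicate D read 40.8% (CDC20) to 123% (CDCA8), with a median of 71.1% over the 42 genes and of 98.4% over all tested genes. It lay under 75% in 31 of 42, against 8.64% of all tested genes.

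**Figure D3:**
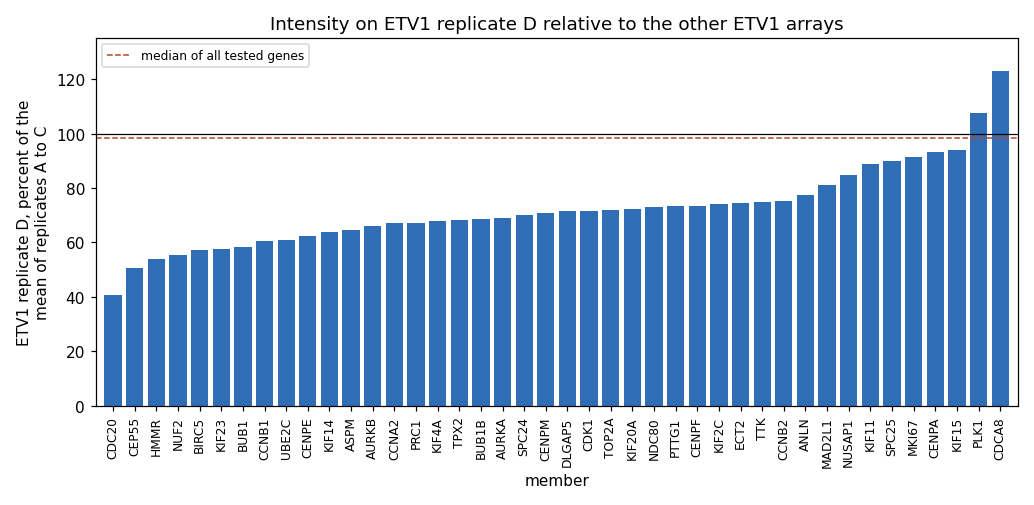
Intensity on ETV1 replicate D as a percentage of the mean of ETV1 replicates A to C, 1 bar per member, sorted. The dashed line is the median of all tested genes, 98.4%. Among the 42, PLK1 (108%) and CDCA8 (123%) alone read higher on D than on the mean of A to C.

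Without replicate D, 10 of the 42 genes were lower on the ETV1 than on the control arrays and 2 were higher, NDC80 and CDC20, where 14.1% of all tested genes were lower and 9.38% higher. The median of the 42 was then -0.15. SPC24, CCNA2, TPX2 and CEP55 no longer passed. The median shift of the 42 genes from the control mean was -0.18, -0.12, -0.17 and -0.68 on ETV1 replicates A to D, against 0.21, 0.03 and -0.24 on control replicates A to C. Over all tested genes the shift of replicate D was -0.06, inside the range of the other ETV1 arrays, -0.09 to -0.03. The 30 DNA replication genes did not set D apart in the same way, with -0.97, -0.89, -0.90 and -0.73 on replicates A to D. The 5 prime part of 18S ribosomal RNA read 276 on replicate D, 680 to 874 on the other ETV1 arrays and 79.4 to 159 on the control arrays, and its part in the result was not tested. Control replicate A was above B and B above C in 37 of the 42 genes, an order that 58.6% of all tested genes showed. Without control replicate A, 6 of the 42 were lower on the ETV1 arrays, where 8.34% of all tested genes were lower.

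**Figure D4:**
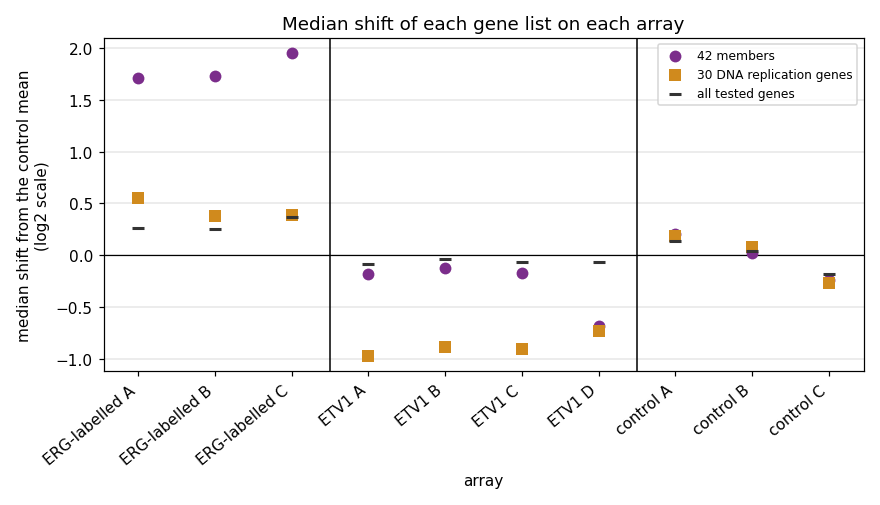
Median over a gene list of log2(intensity + 16) minus the control mean, for each array, with ERG-labelled arrays left, ETV1 arrays in the middle and control arrays right. Circles are the 42 members, squares the 30 DNA replication genes and dashes all tested genes. The ERG-labelled arrays reach 1.70 to 1.95 for the members, and on ETV1 replicate D members and replication genes lie close together, at -0.68 and -0.73.

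Several genes had more than 1 probe set, which can target different ends or isoforms of a transcript. Over 31835 tested probe sets, 70 of the 79 belonging to members were tested. On the ERG-labelled arrays 56 of the 70 were higher and 4 lower than on control arrays, where 40.6% of all tested probe sets were higher and 37.6% lower. For ETV1, 2 were higher and 21 lower than on control arrays, where 9.2% of all tested probe sets were higher and 11.3% lower. The probe sets that stand for SPC24 and CEP55 passed for ETV1 among genes and did not among probe sets.

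Of 19 members with at least 2 tested probe sets, 9 had them all higher on the ERG-labelled arrays: CENPF, MAD2L1, CCNA2, CCNB1, BIRC5, KIF14, KIF23, HMMR and TOP2A. The second KIF23 probe set, 244427_at, lay above the array's median on the ERG-labelled arrays alone. It was tested only because of the arrays where it was high, so its call adds no support to the agreement in KIF23. In 7 of the 19 members only some probe sets passed: CDK1, AURKA, AURKB, KIF2C, ASPM, ANLN and MKI67. Among these the KIF2C probe set 211519_s_at stood at 0.007 (adjusted p = 0.97) and the AURKB probe set 239219_at at -0.31 (adjusted p = 0.056). In 3, BUB1, NUSAP1 and ECT2, probe sets passed in opposite directions. The BUB1 probe set 215509_s_at read 11.5, 18.5 and 12.7 on the ERG-labelled arrays, 151, 146, 176 and 99.99 on the ETV1 arrays, and 144, 155 and 121 on the control arrays. Its ERG-labelled arrays lay below all others, with a log2 fold change of -2.36 (SE 0.18, adjusted p = 2.2e-08), opposite to 209642_at at 2.45 (SE 0.19, adjusted p = 3.1e-08). The NUSAP1 probe set 219978_s_at read 690.3, 629.6 and 896 on the ERG-labelled arrays, 782, 823, 778 and 769.9 on the ETV1 arrays, and 1597, 1339 and 1074 on the control arrays. Its ERG-labelled log2 fold change was -0.84 (SE 0.17, adjusted p = 0.00031), whereas 218039_at rose by 1.60, and on the ETV1 arrays both fell, at -0.73 and -0.63. The ECT2 probe set 234992_x_at read 35.5, 25.2 and 65.1 on the ERG-labelled arrays, 304, 325, 342 and 185 on the ETV1 arrays, and 166, 185 and 138 on the control arrays. Its log2 fold change was -1.68 (SE 0.25, adjusted p = 1.7e-05) on the ERG-labelled arrays, and it rose by 0.74 (SE 0.23, adjusted p = 0.033) on the ETV1 arrays. Averaged over probe sets, ECT2 was lower on the ERG-labelled arrays (-0.42, adjusted p = 0.026) and BUB1 did not pass (0.03, adjusted p = 0.81).

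MKI67 had 4 tested probe sets. All 4 were lower on the ETV1 arrays, at -1.19, -0.86, -0.70 and -0.62. On the ERG-labelled arrays 1 passed, 212022_s_at at 0.69, and the others were at 0.42, -0.02 and -0.20. After quantile normalization 212021_s_at passed in the opposite direction (-0.36, adjusted p = 0.046), while 212022_s_at stood at 0.39 (adjusted p = 0.022). CDK1 had 3 probe sets that rose, at 2.48, 1.62 and 1.502, and all 3 fell on the ETV1 arrays, while the dim 231534_at passed in neither. NUSAP1 and MKI67 had all probe sets lower on the ETV1 arrays, in 8 genes some passed, in 9 none did and in none did 2 pass in opposite directions.

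**Figure D5:**
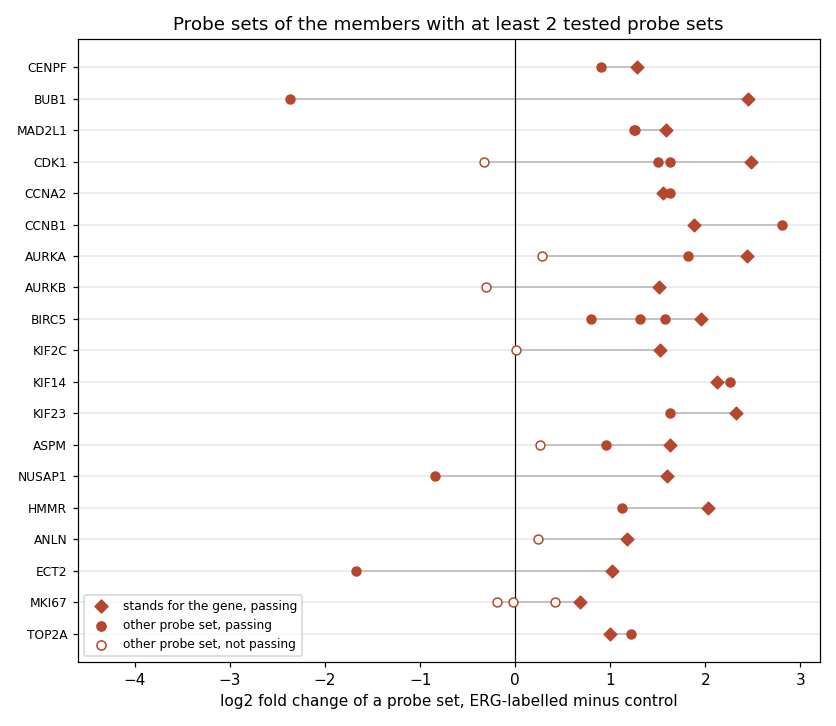
Log2 fold change, ERG-labelled minus control, of each tested probe set of the 19 members with at least 2. Diamonds stand for the gene in the other results, circles are its other probe sets, and filled symbols passed the adjusted p threshold of 0.05. BUB1, NUSAP1 and ECT2 have filled symbols on both sides of 0, at -2.36, -0.84 and -1.68 on the left.

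The rest of the division machinery was read from 9 related lists. Their counts stand against 48% higher and 32.3% lower of all tested genes on the ERG-labelled arrays. On the ETV1 arrays the shares of all tested genes were 9.32% higher and 15.9% lower. Other kinetochore genes were higher in 20 and lower in 2 of 30 on the ERG-labelled arrays, and higher in none and lower in 11 of 30 on the ETV1 arrays. CENPL, of the inner kinetochore, averaged 1744 ± 385 on the ERG-labelled and 231 ± 19.3 on the control arrays (SD, n = 3 each), a log2 fold change of 2.81 (adjusted p = 1e-10). ZWINT, which links checkpoint proteins to the kinetochore, averaged 1059.7 ± 141 on the ETV1 and 2352 ± 308 on the control arrays (SD, n = 4 and 3), a log2 fold change of -1.14 (adjusted p = 2.6e-05). Genes of the spindle and cytokinesis outside the 42 were higher in 31 and lower in 2 of 34 on the ERG-labelled arrays, CDKN3 (2.54, adjusted p = 5.7e-08) and TRIP13 (2.46, adjusted p = 9.7e-09) among them. On the ETV1 arrays 1 of these 34 was higher and 8 were lower, including PLK4, the kinase of centriole duplication (-0.77, adjusted p = 0.0014).

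Condensin, which compacts chromosomes, had 6 of 8 subunit genes higher and 1 lower on the ERG-labelled arrays, led by NCAPG (2.05, adjusted p = 4.4e-09), and 3 lower on the ETV1 arrays, led by NCAPD3 (-1.01, adjusted p = 8.5e-05). Cohesin and separase genes, which hold and release sister chromatids, were higher in 9 and lower in 2 of 14 on the ERG-labelled arrays, and lower in 6 of 14 on the ETV1 arrays, with SMC3 at 1.16 (adjusted p = 4.5e-06) and -0.998 (adjusted p = 0.00014). Genes of the anaphase-promoting complex and its cofactors were higher in 12 and lower in 2 of 14 on the ERG-labelled arrays, with its ubiquitin enzyme UBE2S at 2.47 (adjusted p = 3.6e-08) and the subunit ANAPC2 at -2.46 (adjusted p = 4.6e-10). On the ETV1 arrays 1 of the 14 was higher, UBE2S (0.77, adjusted p = 0.014), and 3 were lower. Regulators of mitotic entry were higher in 7 and lower in 1 of 10 on the ERG-labelled arrays and lower in 4 of 10 on the ETV1 arrays. WEE1, the kinase that restrains CDK1, stood at 1.51 (adjusted p = 6.7e-07) and -0.85 (adjusted p = 0.0013), and CKS2, a CDK subunit, at 2.28 (adjusted p = 6.7e-09) and -0.55 (adjusted p = 0.025).

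The transcription factors FOXM1 and B-MYB (MYBL2) and the DREAM complex are known to control genes of this kind. Of 16 such genes 10 were higher and 3 lower on the ERG-labelled arrays, and none higher and 10 lower on the ETV1 arrays. FOXM1, named after its values were seen, stood at 1.57 (adjusted p = 6.1e-08) on the ERG-labelled and -0.64 (adjusted p = 0.0033) on the ETV1 arrays. MYBL2 averaged 456 ± 28.7 on the ETV1 and 1594 ± 241 on the control arrays (SD, n = 4 and 3), and its log2 fold change was -0.81 (adjusted p = 9.9e-05) on the ERG-labelled and -1.76 (adjusted p = 1.9e-07) on the ETV1 arrays, lower in both. E2F4, which the repressive DREAM complex holds, stood at -2.64 (adjusted p = 1.6e-11) on the ERG-labelled arrays. Of 5 tested inhibitors of cyclin-dependent kinases, 4 were higher and none lower on the ERG-labelled arrays, with CDKN1B, the p27 gene, at 1.74 (adjusted p = 2.4e-08). On the ETV1 arrays CDKN2B (0.96, adjusted p = 8.9e-05) and CDKN1C (0.73, adjusted p = 0.0019) were higher and CDKN1B (-0.94, adjusted p = 0.00017) was lower.

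Genes of DNA replication, which acts in S phase before mitosis, were lower in 25 and higher in none of 30 on the ETV1 arrays, with a median log2 fold change of -0.91. RRM2, a subunit of ribonucleotide reductase, averaged 358 ± 48.4 on the ETV1 and 1684 ± 269 on the control arrays (SD, n = 4 and 3), a log2 fold change of -2.18 (adjusted p = 1.6e-07), and the helicase gene MCM2 1051 ± 248 on the ETV1 and 3510.5 ± 415 on the control arrays (SD, n = 4 and 3), one of -1.74 (adjusted p = 1.2e-06). On the ERG-labelled arrays 17 of these 30 were higher and 4 lower, against 48% and 32.3% of all tested genes. The median of the 30 on these arrays was 0.47, where the 42 mitosis genes had 1.82. RFC3, of the clamp loader, stood there at 1.64 (adjusted p = 3.2e-08) and the helicase cofactor GINS4 at -1.35 (adjusted p = 3.1e-06). The difference between the 2 lists was not tested.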

How the data were processed

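RNA of RWPE-1 cells for 10 arrays (3 ERG-labelled, 4 ETV1, 3 control) was labelled as biotinylated cRNA and hybridised by a standard Affymetrix protocol, per the labels' protocols. The authors deposited 1 intensity per probe set and array on a linear scale; the summarisation and normalization are not given in the sources used here. Of these values 1.21% to 2.93% per array stood at a floor of 1. A probe set was used for a gene where the platform annotation named 1 gene (41091 of 54675); 1801 named several and 11721 none.

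Values were taken as log2(intensity + 16). Genes above the array's median on at least 3 arrays were tested, 14069 in all, each by its brightest probe set over all arrays. One limma model (limma 3.58.1, R 4.3.3) with lmFit and eBayes over the 3 groups left 7 residual degrees of freedom. P-values were two-sided and adjusted by Benjamini-Hochberg over all tested genes, or over the 31835 tested probe sets, with a threshold of 0.05. The tests were checked on simulated data. Replicate letters were not used to pair the samples, and the labels do not say whether same-lettered arrays share a culture or batch. Deviations of same-lettered arrays correlated at -0.095 to 0.087, and those of other pairs at -0.111 to 0.153. With 3 or 4 arrays per group this does not settle whether the letters pair arrays. The named members and their lists, the motif words and the tests were chosen with earlier results of these data known, and CCAAT and ETS searches were added to that for the CHR. Values on every array are given for 29 members by rule: MKI67, TOP2A, in each role the 2 members with the largest absolute log2 fold change among those passing against control in each comparison (the 1 largest if none passed), and members whose probe sets passed in opposite directions. PLK1 and CDCA8 were added after their values were seen. Of each related list up to 3 passing genes with the largest change per comparison could be named. Promoters shown were picked from the leading members that hold a CHR. In all 25 alternatives were run, 15 with all arrays and 10 leaving 1 array out. Silencing experiments in LNCaP and VCaP cells were not analysed here.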

Additional observations from a re-analysis of the deposited data

Results flagged for a closer look

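In groups of 4 arrays, a value whose gap to its nearest neighbour takes up nearly the whole range of the group was singled out, which chance does in about 1 of 20 groups. On the ETV1 arrays this held for 8 of the 42 members (19.0%), against 6.94% of all tested genes. In 7 of the 8 the distant array was replicate D and it was the lowest: BUB1B at 301.26, MAD2L1 at 763.88, CCNA2 at 359.17, AURKA at 451.95, HMMR at 386.17, CEP55 at 252.8 and TOP2A at 720.71. In SPC25 it was replicate C, the highest at 87.45.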

How the results depend on the processing

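Over 25 alternatives, of the 14 genes lower on the ETV1 arrays SPC25, CENPM, MAD2L1, KIF11, NUSAP1 and MKI67 passed in each one that keeps the threshold and in which the gene was tested (24, or 23 for genes whose tested probe sets are all _s or _x). Of the 40 higher on the ERG-labelled arrays 34 did, and so did the fall of PLK1. For ETV1 minus control the higher members numbered 2 with the mean of probe sets, 5 with array weights, 2 with the replicate block, 0 at a threshold of 0.01 and 0 to 2 leaving out 1 array. The lower ones numbered 24 with array weights and 6 to 16 leaving out 1 array. With array weights 25.2% of all tested genes were higher and 44.7% lower. The estimation of these weights by limma stopped before its convergence tolerance was reached. Of the probe sets, the higher ones for ETV1 numbered 1 with a pseudocount of 1, 1 with no filter, 1 without _s or _x probe sets, 8 with array weights, 4 with the replicate block, 0 at the threshold of 0.01 and 0 to 4 leaving out 1 array. The lower ones numbered 10 without _s or _x probe sets, 42 with array weights, 12 with the replicate block, 11 at the threshold of 0.01 and 10 to 23 leaving out 1 array. On the ERG-labelled arrays 2 members were lower with the mean of probe sets, both against control and against ETV1. Against control 34 probe sets were higher and 1 lower without _s or _x probe sets, and 8 were lower with array weights. The median of the 42 was 1.61 with a pseudocount of 64, 1.39 after quantile normalization, 2.23 after median centring, 1.47 with the mean of probe sets and 1.69 to 1.92 leaving out 1 array. With the mean of probe sets ECT2 turned to -0.42 against control and -0.86 against ETV1, and with the probe set brightest on control arrays MKI67 turned to -0.20 (adjusted p = 0.34); their probe sets differ in direction. The labels do not say whether replicate letters share more than a name across groups. Letter D occurs on 1 ETV1 array alone, so the replicate block gives that array a term of its own. This takes replicate D out of the comparison of ETV1 with control, as leaving it out does, with the same median of -0.15 over the 42. The causes of the other shifts were not tested. Values at the floor of 1 have no order.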

Other observations

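Of the 79 member probe sets 9 were too dim to be tested. Among them the TOP2A probe set 237469_at read 61.9, 54.1 and 48.0 on the ERG-labelled arrays, 21.2, 23.6, 16.7 and 22.1 on the ETV1 arrays, and 29.6, 12.4 and 20.0 on the control arrays, so that the ERG-labelled arrays did not overlap with the others. The BUB1 probe set 216277_at read 29.3 to 37.9 on the ERG-labelled, 6.87 to 21.0 on the ETV1 and 10.7 to 19.8 on the control arrays. The CCNB2 probe set 232764_at read 8.95 to 21.3 on the ERG-labelled, 29.9 to 41.2 on the ETV1 and 26.2 to 34.1 on the control arrays, opposite to the probe set that stands for CCNB2. These 3 were picked after their values were seen.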
